A study of Homo sapiens with 16 samples.

Results

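The members described here are the peaks of 2 acetylation marks that start between 60 and 130 Mb of chromosome 1, a stretch that runs along the short arm, past JAK1 and down to the centromere. There were 2855 such peaks among the 179689 peaks of the 8 lists, and the rest of chromosome 1 held 16434. The segment was selected on the difference between the cisplatin (cPt)-resistant line A2780cis and its sensitive parent A2780, because the length covered by peaks was longer in A2780cis in the first part of the segment and shorter further on. Every value that sets A2780cis against A2780 is therefore a description of the contrast that chose the segment, for H3K27ac and for H3K9ac alike. The lists of the second cell line pair and of the MBD3 knockdown cells were not used in that choice.

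All cells were established lines of human epithelial ovarian cancer. H3K27ac was profiled by ChIP-seq in untreated A2780, in A2780cis, which the labels give as cisplatin treated, in untreated CAOV4, in CAOV4cis, which are CAOV4 cells kept under rising doses of cPt, and in A2780 cells after 1 week of MBD3 knockdown with shMBD3.26 or shMBD3.232, while H3K9ac was profiled in A2780 and A2780cis. The study gives an endometrioid adenocarcinoma as the origin of A2780 and high-grade serous cancer as the subtype of CAOV4. It describes the cPt treatment of CAOV4cis as shorter than that of A2780cis, so the pairs were not matched. The knockdown cells carried an inducible shRNA with a GFP marker in a viral vector and were sorted for GFP, whereas the A2780 list they are set against comes from cells without an shRNA. All libraries shared a Drosophila melanogaster spike-in of 5% of the mononucleosomes, and each condition had 1 library, so no difference below has a replicate check and no test of a condition was possible. Within the segment, the H3K27ac lists held 479 peaks in A2780, 343 in A2780cis, 416 with shMBD3.26, 324 with shMBD3.232, 326 in CAOV4 and 361 in CAOV4cis, and the H3K9ac lists held 420 in A2780 and 186 in A2780cis. The lists give the start and end of each peak and no height, and the number of reads behind them is unknown, so all values are lengths covered by peaks (in kb) or numbers of regions. Positions follow GRCh37 (hg19), the build in the submitters' processing notes.

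Acetylation of histone H3 at lysine 27 marks active promoters and enhancers, and acetylation at lysine 9 is densest at active promoters and is also present at strong enhancers. Long stretches of closely spaced H3K27ac peaks are often called super-enhancers and tend to lie near genes that define the state of a cell. MBD3 is a subunit of the NuRD complex, which combines a nucleosome remodeler with histone deacetylases. JAK1, whose window is drawn in the study over the stretch described below, encodes a tyrosine kinase that passes signals from cytokine receptors to STAT transcription factors.

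The agents behind the knockdown lists were 2 shRNAs. Their sequences, which the study lists as guides, are shown as listed (22 bases each) because both lists are compared with A2780 below. The strand of each sequence relative to the MBD3 transcript is not stated and was not checked.
MBD3.26: aacaaggtcaagagcgacccgc
MBD3.232: ttgctcatcagcatcttgcccg

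Over the whole segment, H3K27ac peaks covered 1757.2 kb in A2780 and 1477.8 kb in A2780cis, a ratio of 0.841, against a ratio of 0.952 over all chromosomes outside the segment. This moderate difference is the sum of a longer and a shorter part. Between 60 and 80 Mb, H3K27ac peaks covered 368.2 kb in A2780 and 625.6 kb in A2780cis, a ratio of 1.7. Between 80 and 130 Mb, they covered 1389.0 kb in A2780 and 852.2 kb in A2780cis, a ratio of 0.614. H3K9ac differed in the same directions, and by more in covered length, from 157.8 kb to 361.0 kb in the first part, a ratio of 2.29, and from 790.2 kb to 298.8 kb in the second, a ratio of 0.378. The H3K9ac ratio of covered length outside the segment was 0.992. By number of peaks, the first-part ratio was 1.24 for H3K9ac and 1.47 for H3K27ac, against 0.679 and 0.729 outside the segment. The A2780cis lists thus held fewer peaks outside the segment, and these were wider, with median width ratios of 1.62 and 1.27. In CAOV4 and CAOV4cis, the H3K27ac peaks covered 210.4 kb and 211.2 kb in the first part and 650.8 kb and 646.6 kb in the second, ratios of 1.0 and 0.994, with 1.06 outside the segment. The shRNA lists were shorter than A2780 in both parts, with ratios of 0.806 and 0.831 for shMBD3.26 and of 0.826 and 0.747 for shMBD3.232, and were also shorter outside the segment, with ratios of 0.794 and 0.818. Scaled to the total covered length of each list, the log2 ratios of the first and second part were 0.02 and 0.06 for shMBD3.26 and 0.02 and −0.13 for shMBD3.232. These values were small, and the sign changed in 3 of the 4. The shorter length in the segment was thus near that of the whole shRNA lists.

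The change along the segment was not gradual. The running sum of the differences between A2780cis and A2780 over 1 Mb bins was highest at 75 Mb for both marks, at 379.2 kb for H3K27ac and 239.2 kb for H3K9ac, and ended at −279.4 kb and −288.2 kb. It was built from a few steep steps and from a long decline that began at 85 Mb. The steps up lay in the bins from 65, 70, 102 and 103 Mb, in both marks. The 5 largest steps down lay in the bins from 75, 96, 97, 108 and 120 Mb for H3K27ac and in those from 75, 96, 110, 113 and 120 Mb for H3K9ac. For CAOV4cis against CAOV4, the same sum ran between −26.4 kb and 15.6 kb and ended at −3.4 kb. For the shRNAs it was never above 0.0 kb and ended at −306.8 kb for shMBD3.26 and −416.0 kb for shMBD3.232.

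**Figure D1:**
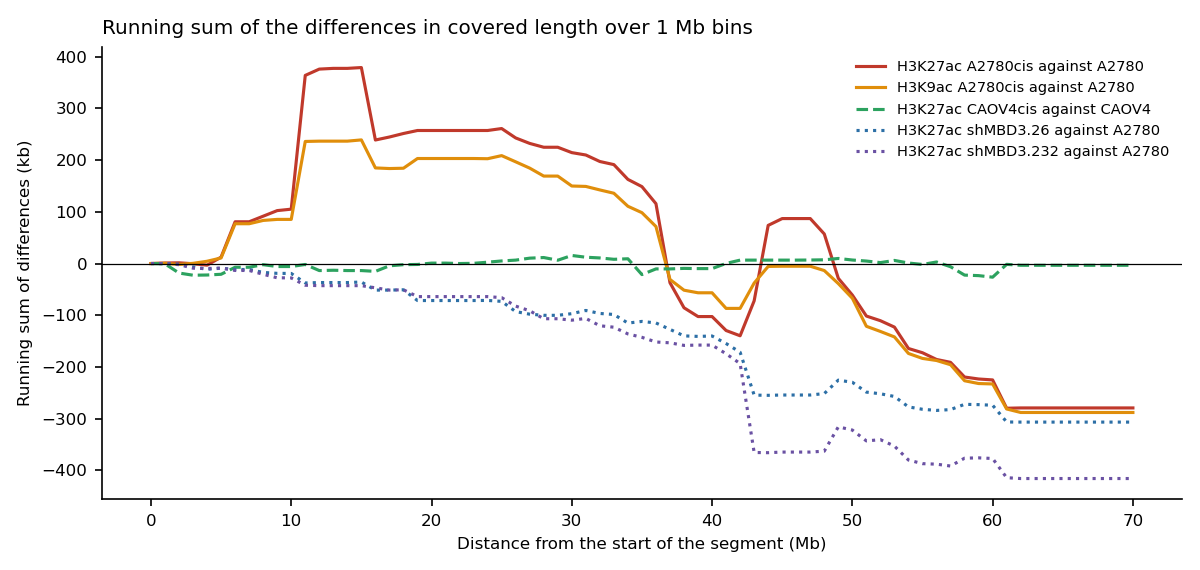
Running sum of the difference in covered length, in kb, from the start of the segment, for the 5 comparisons (1 line each). Both lines of A2780cis against A2780 climb to their highest point 15 Mb into the segment and end below 0, the CAOV4 line stays between −26.4 kb and 15.6 kb, and the shRNA lines, which share the A2780 list as reference, go down in most of the segment.

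The stretch named after JAK1 lies in the first step up. Its name follows the window drawn in the study, since no gene annotation of this build was at hand. In the 65 Mb bin, H3K27ac peaks covered 13.8 kb in A2780, 11.2 kb with shMBD3.26, 9.2 kb with shMBD3.232, 47.8 kb in CAOV4, 61.4 kb in CAOV4cis and 82.2 kb in A2780cis, and H3K9ac peaks covered 2.2 kb in A2780 and 68.4 kb in A2780cis. The JAK1 stretch itself, chr1:65397001-65448400, held 4 stitched H3K27ac peaks with 34.2 kb in A2780cis, the widest of them at chr1:65410201-65435800 (25.6 kb). Over the same stretch the A2780 list had 1 peak with 1.2 kb, shMBD3.26 had 0.8 kb and shMBD3.232 had none. CAOV4 had 2.0 kb there and CAOV4cis 7.8 kb. Both resistant lines thus had more covered length than their parents in single libraries, although CAOV4cis reached less than A2780cis. By covered length the stretch ranked 427th of 12915 stitched H3K27ac clusters in A2780cis. The study describes an enhancer cluster over the whole gene, and whether this stretch holds all of it was not checked. The CAOV4cis gain in the whole 65 Mb bin, 13.6 kb, was the 279th largest of 2121 bins with a peak in either line. Among clusters made only of regions with a peak in CAOV4cis and none in CAOV4 between 60 and 80 Mb, the longest lay within this stretch. It was chr1:65414401-65432000, with 6.4 kb. H3K9ac peaks covered none of the JAK1 stretch in A2780 and 24.6 kb of it, in 6 peaks, in A2780cis. Just beyond it, chr1:65461001-65472800 held 10.8 kb of H3K27ac in A2780cis and none in A2780, with 4.4 kb in CAOV4 and 7.4 kb in CAOV4cis.

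Of the 3 JAK1 promoters in RefSeq (GRCh38.p14, 300 bases around the start, strand −), the one richest in CpG is printed, with each CG in capitals, because JAK1 is the gene drawn over this stretch.
JAK1 promoter: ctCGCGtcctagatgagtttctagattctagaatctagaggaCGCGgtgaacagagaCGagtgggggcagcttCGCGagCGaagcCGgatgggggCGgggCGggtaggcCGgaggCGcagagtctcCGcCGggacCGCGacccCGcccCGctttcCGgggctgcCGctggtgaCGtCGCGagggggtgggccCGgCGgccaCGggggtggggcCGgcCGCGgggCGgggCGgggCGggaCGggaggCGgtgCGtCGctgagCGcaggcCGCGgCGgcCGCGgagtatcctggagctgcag
It holds 43 CG dinucleotides, and 4.98% of 35116 RefSeq promoters of this length hold as many or more. The other JAK1 promoters hold 15 and 9, and 48.9% and 58.4% of promoters hold as many or more. The count is a property of the reference sequence and not of these cells. Because the lists use another build, the place of this promoter relative to the peaks is not given.

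The bin from 70 Mb was the largest single step, and its difference of 258.8 kb was the 4th largest H3K27ac gain of 2068 bins with a peak in either line. H3K27ac peaks there covered 299.4 kb in A2780cis, against 40.6 kb in A2780, 22.2 kb with shMBD3.26, 26.4 kb with shMBD3.232, 8.2 kb in CAOV4 and 12.2 kb in CAOV4cis. H3K9ac peaks covered 165.6 kb in A2780cis and 14.8 kb in A2780, the 11th largest gain of 1910 bins. Most of this length lay in a pair of dense clusters. The first, chr1:70362401-70513200, held 127.0 kb of H3K27ac in 7 peaks and 99.4 kb of H3K9ac in 11 peaks in A2780cis, and included the widest peak of the segment in any list, chr1:70410401-70482400 (72.0 kb). The second, chr1:70031001-70142200, held 77.6 kb of H3K27ac and 22.6 kb of H3K9ac. Neither cluster had a peak of either mark in A2780, or an H3K27ac peak in CAOV4, CAOV4cis or the shRNA lists. By covered length the first cluster ranked 37th of 12915 stitched H3K27ac clusters in A2780cis. What A2780 did hold in this bin was shared, for example the region chr1:70667801-70681000, with 9.0 kb of H3K27ac in A2780, 13.2 kb in A2780cis, 3.6 kb and 10.6 kb with the shRNAs, 3.0 kb in CAOV4 and 3.8 kb in CAOV4cis.

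The first part also held a loss of similar kind. In the bin from 75 Mb, H3K27ac peaks covered 148.0 kb in A2780 and 7.8 kb in A2780cis, and H3K9ac peaks 58.0 kb and 3.8 kb. The shRNA lists had 132.4 kb for shMBD3.26 and 143.8 kb for shMBD3.232, whereas CAOV4 had 1.6 kb and CAOV4cis none. The lost clusters were chr1:75425601-75501600 with 44.4 kb of H3K27ac in A2780, chr1:75538201-75571800 with 33.6 kb in a single peak, the widest of A2780 in the segment, and chr1:75236601-75262800 and chr1:75585201-75620000 with 24.6 kb each. Without the bins from 65, 70 and 75 Mb, the first part covered 165.8 kb of H3K27ac in A2780 and 236.2 kb in A2780cis, a ratio of 1.42, and 82.8 kb and 123.2 kb of H3K9ac, a ratio of 1.49. The steps thus carried most of the difference, and the remaining bins together were also longer in A2780cis. Among them the bin from 64 Mb held 1.6 kb of H3K27ac in A2780 and 17.2 kb in A2780cis, and the bin from 78 Mb held 17.0 kb of H3K9ac in A2780 and 35.8 kb in A2780cis.

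The second part combined isolated clusters with a wide decline. Its longest lost cluster was chr1:96394801-96567200, in which A2780 had 12 H3K27ac peaks with 147.2 kb and 15 H3K9ac peaks with 97.8 kb, and A2780cis had no peak of either mark. The same stretch had 134.0 kb with shMBD3.26 and 145.0 kb with shMBD3.232 and no peak in CAOV4 or CAOV4cis. It ranked 30th of 14153 stitched H3K27ac clusters in A2780. Next to it, the bin from 97 Mb had 51 kb of H3K27ac in A2780 and 2.6 kb in A2780cis, 34.4 kb of the former in chr1:97430401-97466400. From 107 to 109 Mb, H3K27ac peaks covered 117.8 kb in A2780 and 2.2 kb in A2780cis, and H3K9ac peaks 33.6 kb and none, with lost clusters at chr1:107971801-108004200 (31.0 kb), chr1:108114601-108216000 (39.6 kb) and chr1:108284201-108318000 (27.6 kb). In the bin from 108 Mb, CAOV4 had 63.4 kb and CAOV4cis 66 kb, so this stretch, unlike the one at 96 Mb, held peaks in both lines of the other pair.

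Within the region of losses lay a second island of gains. The bin from 102 Mb held the most H3K27ac of any A2780 bin in the segment, 172.6 kb, and had 240.2 kb in A2780cis, and the bin from 103 Mb had 0.4 kb in A2780 and 146.4 kb in A2780cis, the 26th largest gain of 2068 bins. H3K9ac peaks covered 74.6 kb and 123.6 kb in the former bin and none and 32.2 kb in the latter. The longest regions common to both lines were chr1:102144201-102193800, with 43.6 kb in A2780 and 43.2 kb in A2780cis, chr1:102300001-102347000, with 35.6 kb and 47 kb, and chr1:102356801-102398400, with 33.4 kb and 41.6 kb. Beyond them, chr1:103638801-103701800 held 50 kb and chr1:103529401-103583400 held 45 kb of H3K27ac in A2780cis, and neither had a peak in the other H3K27ac lists. CAOV4 and CAOV4cis had no peak from 102 to 105 Mb.

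**Figure D2:**
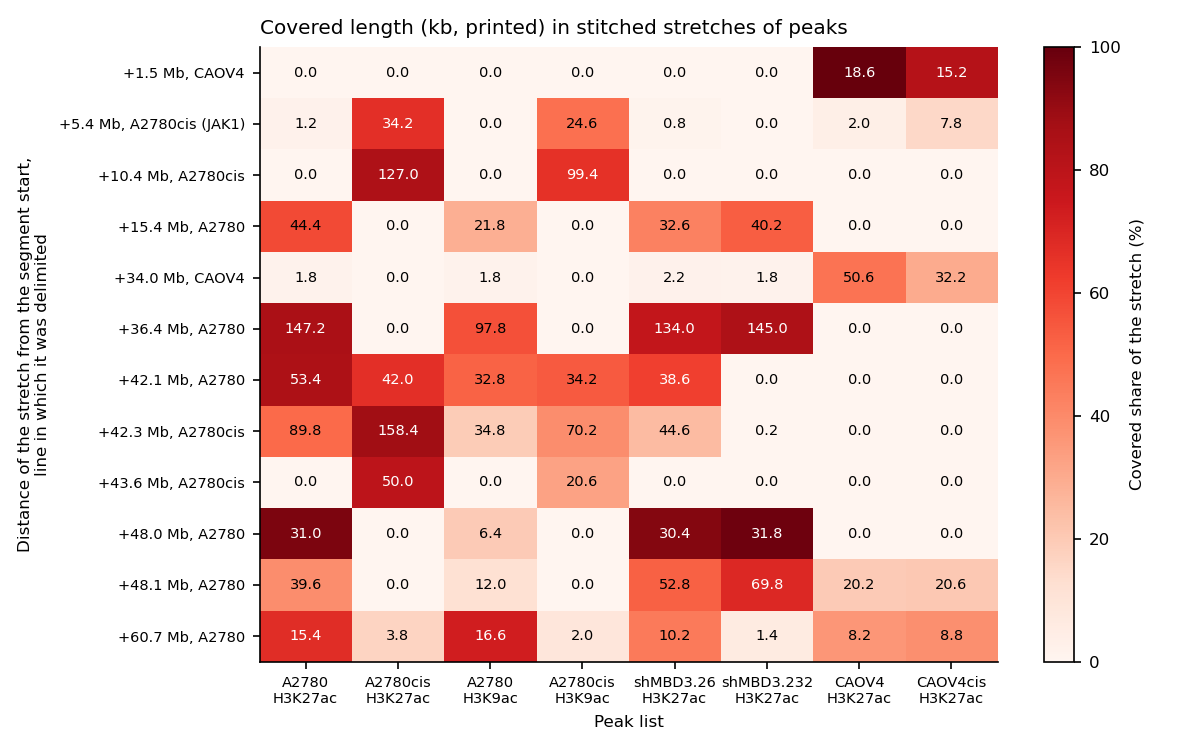
Covered length in kb (numbers) and as a share of the stretch in % (color) in 12 stitched stretches (rows, by distance from the segment start in Mb and the line in which they were delimited) for the 8 lists (columns). The stretch at +10.4 Mb is filled in both A2780cis columns and empty in the others, the one at +36.4 Mb is filled in A2780 and both shRNA columns and empty in A2780cis, and those at +42.1 and +42.3 Mb are nearly empty with shMBD3.232.

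Most bins with a peak in the second part were shorter in A2780cis. From 84 Mb on, with the islands and lost clusters counted, 29 bins were shorter and 5 longer in A2780cis for H3K27ac. For H3K9ac, 29 were shorter and 4 longer. Shorter bins were also the majority elsewhere, among bins chosen by their covered length in A2780. Among bins with at least 20 kb of H3K27ac in A2780, 95.5% of 22 between 80 and 130 Mb were shorter. This share was 59.7% outside the segment and 72.5% on the rest of chromosome 1. For H3K9ac the shares were 92.9% of 14, 64.5% and 72.0%. Choosing bins by their length in A2780 favors shorter ones, inside and outside the segment alike. The bin from 103 Mb, with 0.4 kb of H3K27ac in A2780 and 146.4 kb in A2780cis, could not enter. Between 84 and 122 Mb without the bins from 96 to 99, 102 to 105 and 107 to 109 Mb, a choice made after seeing the values, H3K27ac peaks covered 874.2 kb in A2780 and 444.6 kb in A2780cis, a ratio of 0.509, and H3K9ac peaks covered 551.4 kb and 140.6 kb, a ratio of 0.255. Over the same bins, the ratio was 0.984 in the CAOV4 pair, 0.822 for shMBD3.26 and 0.744 for shMBD3.232. Examples of shorter bins were the bin from 113 Mb, with 81.4 kb of H3K27ac in A2780 and 40 kb in A2780cis and with 39.6 kb and 7.6 kb of H3K9ac, and the bin from 110 Mb, with 80.2 kb and 39.6 kb of H3K27ac and 63.6 kb and 9.4 kb of H3K9ac. In the bin from 120 Mb, H3K27ac peaks covered 79.2 kb in A2780 and 24.4 kb in A2780cis, and H3K9ac peaks 65.4 kb and 17.0 kb. The first bins of the second part were nearly bare, and the bin from 84 Mb was still longer in A2780cis, with 18.8 kb and 22.6 kb.

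Counting bins, a bin was compared where 1 list of a pair covered at least 20 kb, and called when one list covered at least 2 times the length of the other. For H3K27ac in A2780cis against A2780, 2 of 7 bins between 60 and 80 Mb and 1 of 24 between 80 and 130 Mb were called longer, where 8.4% of all bins compared genome-wide were, and 1 and 13 were called shorter, where 13.5% were. For H3K9ac, 3 of 5 and 1 of 15 bins were called longer, against 10.4% of all bins, and 1 and 12 were called shorter, against 13.2%. These counts describe the contrast that chose the segment. For CAOV4cis against CAOV4, none of 4 and none of 9 bins were called longer, against 4.1%, and 1 and none were called shorter, against 4.7%. For shMBD3.26, none of 6 and none of 23 bins were called longer, against 1.52%, and none and 1 were called shorter, against 3.58%. For shMBD3.232, none of 6 and none of 23 were called longer, against 0.997%, and none and 4 were called shorter, against 6.07%.

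Both marks moved together bin by bin in A2780cis against A2780. Over the 52 bins with a peak of either mark, the differences of H3K27ac and H3K9ac had Pearson's r = 0.93 and Spearman's rho = 0.92, and r was 0.91 without the 2 bins farthest from the median. They had the same sign in 43 of the 48 bins that differed in both marks. The 2 marks were measured in the same pair of lines and the bins are neighbors on 1 chromosome, so this describes these libraries. The segment was selected on these differences, and the values were not computed for bins outside it. The H3K27ac differences of the A2780 pair and of the CAOV4 pair had r = 0.04 and rho = 0.03 over 58 bins (r = −0.01 without the 2 farthest) and the same sign in 25 of 45 bins.

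At the level of single peaks, overlapping peaks of a pair (1 bp or more) were joined into regions, and a region was gained when only the first named list had a peak there and lost when only the reference had one. The mark may be present below the peak caller's threshold where no peak is listed. For H3K27ac in A2780cis against A2780, 89 of 179 regions between 60 and 80 Mb were gained, or 49.7% (42.5% to 57.0%, 95% Wilson interval, counting error only), where 17.9% of all regions were, and 43 were lost, or 24% (18.4% to 30.8%), where 38.1% were. Between 80 and 130 Mb, 35 of 405 were gained, or 8.64% (6.28% to 11.8%), and 208 were lost, or 51.4% (46.5% to 56.2%). For H3K9ac, 64 of 136 regions in the first part were gained, or 47.1%, against 21.7% of all regions, and 44 were lost, or 32.4%, against 46.0%. In the second part, 43 of 376 H3K9ac regions were gained, or 11.4%, and 284 were lost, or 75.5% (70.9% to 79.6%). For CAOV4cis against CAOV4, 44 of 117 and 134 of 371 regions were gained, or 37.6% and 36.1%, against 33.8% of all regions, and 36 and 121 were lost, or 30.8% and 32.6%, against 29.1%. For shMBD3.26, 21 of 113 and 77 of 458 were gained, or 18.6% and 16.8%, against 18.0%, and 38 and 135 were lost, or 33.6% and 29.5%, against 34.0%. For shMBD3.232, 9 of 100 and 43 of 419 were gained, or 9.0% and 10.3%, against 10.9%, and 42 and 164 were lost, or 42% and 39.1%, against 40.1%. The shares of the CAOV4 pair and of both shRNAs thus lay near those of the whole lists in both parts.

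**Figure D3:**
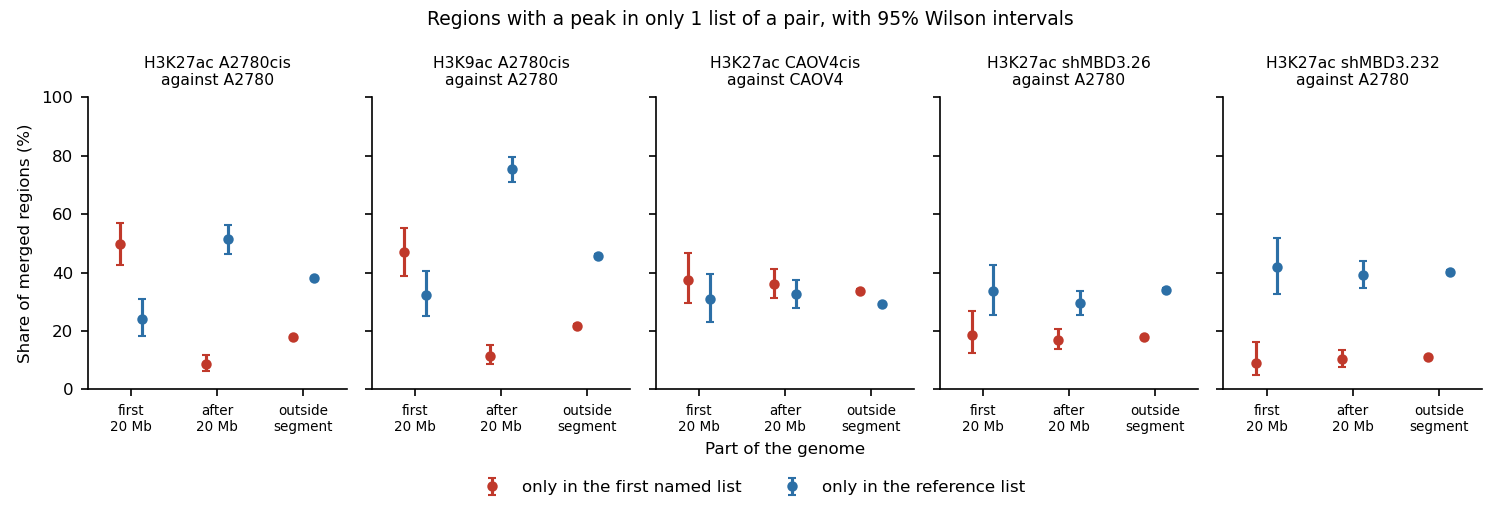
Share of merged regions in % with a peak in only 1 list of each of the 5 pairs (red: first named list, blue: reference list), in the first 20 Mb of the segment, in the rest of it and outside the segment, with 95% Wilson intervals that cover counting error only. In both panels of A2780cis against A2780 the order of red and blue is opposite in the parts of the segment, and in the other panels the shares are close to those outside.

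Regions present in both lines followed the same course. Among the 47 common H3K27ac regions between 60 and 80 Mb, the median ratio of A2780cis to A2780 width was 1.29 (quartiles 1.02 and 1.5), and among the 162 between 80 and 130 Mb it was 0.754 (quartiles 0.535 and 1.09). In the latter part, 112 of 162 were narrower in A2780cis, or 69.1% (61.6% to 75.7%), whereas 38.3% of 14029 were outside the segment, where the median ratio was 1.09. For H3K9ac the medians were 1.26 over 28 regions, 0.733 over 49 and 1.12 over 8846 outside. An H3K9ac peak lay at 120 of the 162 common H3K27ac regions of the second part in A2780, or 74.1% (66.8% to 80.2%), and at 59 in A2780cis, or 36.4% (29.4% to 44.1%). In the first part these shares were 70.2% and 74.5% of 47 regions, and outside the segment 68.6% and 69.0% of 14029. In the CAOV4 pair, the median width ratio of common regions was 0.75 over 37 regions in the first part and 1.0 over 116 in the second, against 1.07 outside.

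Changed regions wider than 2 kb were then looked up in the CAOV4 lists, which were not part of the choice. Of the 44 gained in A2780cis between 60 and 80 Mb, 10 had a peak in CAOV4 or CAOV4cis, or 22.7% (12.8% to 37.0%), against 27.9% of gained regions outside the segment. All 10 had one in CAOV4cis, or 22.7% against 21.2% outside the segment, and 4 had one in CAOV4, or 9.09% (3.59% to 21.2%) against 19.2%. Of the 21 gained between 80 and 130 Mb, 0 had a peak in either CAOV4 list, which allows a share of up to 14.3% when the limit is set at 3 counts and up to 15.5% by the Wilson interval. Of the 15 lost between 60 and 80 Mb, 1 had a peak in CAOV4 or CAOV4cis, or 6.67% (1.19% to 29.8%), and of the 68 lost between 80 and 130 Mb, 24 had one, or 35.3% (25% to 47.2%), against 24.7% outside the segment. Lost regions often lay close together. Counting all widths, 12 lay in chr1:96394801-96567200, without a CAOV4 or CAOV4cis peak, and 10 in chr1:108114601-108216000, with both. The intervals treat such neighbors as independent and cover counting error only.

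CAOV4 had its own dense bins in the segment. The bin from 61 Mb held 65.6 kb of H3K27ac in CAOV4 and 47.8 kb in CAOV4cis, against 2.2 kb in A2780 and 2.6 kb in A2780cis, and a single peak, chr1:61541401-61560000, covered 18.6 kb in CAOV4 and 15.2 kb of that stretch in CAOV4cis, with no peak in the other lists. The bin from 94 Mb held 92.0 kb in CAOV4 and 61.4 kb in CAOV4cis, mostly within chr1:94045601-94153200, where CAOV4 had 50.6 kb, CAOV4cis 32.2 kb, A2780 1.8 kb and A2780cis none. These were also the largest losses of the pair, at −17.8 kb and −30.6 kb, followed by the bins from 117, 71 and 116 Mb. The largest gains were 24.8 kb in the bin from 120 Mb (67.6 kb and 92.4 kb), 13.6 kb in the JAK1 bin, and 10 to 11 kb in the bins from 95, 76 and 100 Mb. Single clusters found in 1 line of the pair were small. Among clusters that held only such regions, the longest in CAOV4 were 6.2 kb, at chr1:110470801-110477000 and chr1:117553801-117560000, both without a peak in any A2780 list. In CAOV4cis they were 6.4 kb, at the JAK1 stretch and at chr1:108137001-108143400. At the latter, A2780 and both shRNA lists also had 6.4 kb and A2780cis had none. Clusters that also held other regions were not ranked, and the widest single region in CAOV4 alone was 6800 bp.

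Both knockdown comparisons use the A2780 list that is also the reference for A2780cis, so that their values are given side by side and their changes were not counted against each other. One bin stood apart. The bin from 102 Mb had 172.6 kb of H3K27ac in A2780, 89.6 kb with shMBD3.26 and 0.6 kb with shMBD3.232, and the latter difference, −172.0 kb, was the largest loss of the 1953 bins with a peak in either list. The common region chr1:102144201-102193800 had 43.6 kb in A2780, 36.2 kb with shMBD3.26 and none with shMBD3.232, and chr1:102300001-102347000 had 35.6 kb, 20 kb and none. The bin was covered in A2780cis as well, at 240.2 kb, so that the 4 lists of A2780 origin ran from 0.6 to 240.2 kb there. In contrast to A2780cis, the shRNA lists were longer than A2780 in the bin from 108 Mb, with 85.8 kb in A2780, 111.8 kb with shMBD3.26 and 132.8 kb with shMBD3.232, and in the bin from 117 Mb, with 43.4 kb, 53.6 kb and 58.6 kb. The bin from 120 Mb was shorter with both, at 46.8 kb and 42 kb against 79.2 kb. The other bins with the largest differences were those from 78, 85 and 113 Mb for shMBD3.26, between −19.8 kb and −20.8 kb, those from 101, 110 and 113 Mb for shMBD3.232, between −19.0 kb and −27.0 kb, and small gains of 1.8 to 6.2 kb in the bins from 89, 90 and 94 Mb for shMBD3.26 and from 90, 107 and 111 Mb for shMBD3.232.

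Merging the A2780 and shRNA lists gave 595 regions in the segment. All 3 lists had a peak at 246 of them, or 41.3% (37.5% to 45.3%), against 38.1% outside the segment. Only A2780 had one at 154, or 25.9% (22.5% to 29.5%), against 27.2%, and both shRNA lists but not A2780 at 7, or 1.18% (0.571% to 2.41%), against 2.02%. Clusters that held only regions of 1 such class were ranked. For both shRNA lists without A2780, ranked by the shorter of the shRNA lists, the longest was chr1:113305001-113306600, with 1.4 kb in each. Another, chr1:90370601-90373200, had 0.4 kb with shMBD3.26 and 2.6 kb with shMBD3.232. The longest such cluster with A2780 alone covered 11.8 kb, at chr1:102415401-102440800, where A2780cis had 25.4 kb.

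The edges of the segment lay in sparse stretches. The bin just before it, from 59 Mb, held 7.4 kb of H3K27ac in A2780 and 17.0 kb in A2780cis, and the bin just inside, from 60 Mb, held none and 1.0 kb. Around the middle boundary, neither line had a peak of either mark from 79 to 83 Mb. No list had a peak in 11 of the 70 bins, those from 66, 80 and 105 Mb and the 8 from 122 Mb to the end, where the centromere lies. The last peak of each list lay between chr1:121127401-121127600 (CAOV4cis) and chr1:121483601-121485600 (H3K9ac in A2780), and the first peak beyond the segment was chr1:142586001-142586600, also H3K9ac in A2780.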

How the data were processed

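ChIP-seq peak lists of H3K27ac and H3K9ac were analyzed, 1 per sample. As stated in their methods, the authors aligned paired-end reads with Bowtie2 on the Galaxy platform, applied quantile normalization in R and used MACS2 as peak caller. The files the authors deposited give the start and end of each peak and a score that is 0 throughout. Versions are not given in the sources used here. In the segment, all boundaries are multiples of 200 bp and gaps within a list are 1000 bp or more. No source names a step behind this, and widths are taken as listed. Reads per peak are unknown. Input libraries and control shRNA cells were not analysed here, and 6 peaks off the standard chromosomes were left out.

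The length covered by peaks was summed over 1 Mb bins, and peaks up to 12.5 kb apart were stitched into clusters ranked by covered length. Named regions are, for each part of the segment, the 5 longest clusters with a peak in A2780cis or A2780 alone, the 3 longest common regions, the 3 longest clusters of the CAOV4 and shRNA classes, the widest peak of each list, the 5 bins with the largest gain or loss per pair, and JAK1. Clusters that joined regions of different classes were left out of these rankings, so a longer region can lie in one of them. Not all named regions are printed, and any other bin or region named or left out was chosen after its values were seen. The segment, its split at 80 Mb and these rules were chosen with earlier results of these data known. The alternatives were peaks over 2 kb, the same number of widest peaks, scaling to the list total, numbers of peaks, other overlaps, other bin sizes, a split at 75 Mb and leaving out the extreme bins. Python 3.11.15, numpy 2.4.6, pandas 2.3.3, SciPy 1.17.1 and matplotlib 3.10.9 were used, and the binning and classing were tested on simulated data. RefSeq tables were of GRCh38.p14, not of the build of the lists, so peaks were not assigned to genes, the 86 listed genes of the segment were not scored, and cell type markers were not checked.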

Additional observations from a re-analysis of the deposited data

Results flagged for a closer look

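In these bins, which are among the 5 largest gains or losses of a pair, the difference in H3K27ac covered length had opposite signs in 2 comparisons. The difference between the comparisons was not tested, since each list comes from 1 library. In the bin from 120 Mb, A2780cis was shorter than A2780 (−54.8 kb) and CAOV4cis longer than CAOV4 (24.8 kb). The same order held in the bins from 95 Mb (−33.0 kb and 11 kb), 97 Mb (−48.4 kb and 1.0 kb), 100 Mb (−27.0 kb and 10 kb) and 108 Mb (−85.8 kb and 2.6 kb). The reverse order held in the bins from 61 Mb (0.4 kb for A2780cis and −17.8 kb for CAOV4cis) and 71 Mb (12.2 kb and −11.8 kb). The values for CAOV4cis in the bins from 97 and 108 Mb and for A2780cis in the bin from 61 Mb were at most 2.6 kb. The shRNAs had opposite signs against their shared A2780 list in the bins from 89 Mb (3.2 kb for shMBD3.26 and −2.8 kb for shMBD3.232), 94 Mb (3.2 kb and −6.6 kb) and 111 Mb (−3.2 kb and 2.4 kb).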

How the results depend on the processing

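The covered length ratios kept their direction in A2780cis against A2780, in both marks and both parts, under all alternatives run for them. The running sum was highest at 75 Mb with bins of 0.5 Mb, peaks over 2 kb and scaling to the list total, the alternatives run for it. Scaling to the list total turned the log2 ratio from −0.31 to 0.02 and from −0.27 to 0.06 in the first and second part for shMBD3.26 and from −0.28 to 0.02 in the first for shMBD3.232, and gave −0.08 and −0.09 for CAOV4cis, against 0.01 and −0.01. Of 156 alternative values, 105 lay within 1.5-fold of the reported ones (1 Mb for a position) and 51 did not. With the split at 75 Mb, added after seeing the data, the log2 ratio of the first part was 1.77 for H3K27ac and 2.08 for H3K9ac, since the loss from 75 to 76 Mb then falls in the second part. For H3K9ac in the first part it was 0.31 by number of peaks and 0.57 without the bins from 65, 70 and 75 Mb (also added after seeing the data), against 1.19. Counts of changed regions went down where narrow peaks were left out or near peaks joined, as fewer regions are then compared. With peaks over 2 kb looked up in the full list, gained and lost regions numbered 44 and 15 in the first part and 21 and 68 in the second for H3K27ac in A2780cis, 34 and 11, and 22 and 100 for H3K9ac, 14 and 6, and 30 and 36 for CAOV4cis, 2 and 6, and 5 and 27 for shMBD3.26, and 1 and 7, and 9 and 39 for shMBD3.232. With partners up to 5 kb apart, 58 H3K27ac and 40 H3K9ac regions of the first part were gained in A2780cis, the CAOV4 pair had 25 and 22, and 85 and 78, shMBD3.26 had 11 and 21, and 50 and 80, and shMBD3.232 had 4 gained in the first part and 23 gained and 108 lost in the second. With bins of 0.5 Mb and a minimum of 10 kb, bins called longer and shorter numbered 10 and 25 for H3K27ac and 8 and 25 for H3K9ac in A2780cis, 4 and 2 for CAOV4cis, and 2 and 8 were shorter with shMBD3.26 and shMBD3.232. With bins of 2 Mb and a minimum of 40 kb, 8 were shorter for H3K27ac in A2780cis, 0 for CAOV4cis, 0 for shMBD3.26 and 2 for shMBD3.232. With peaks over 2 kb, 0 were shorter for CAOV4cis, and scaled to the list total, 2 for shMBD3.232. No paired analysis was possible because each condition has 1 library and no result comes from a test. Depth is unknown, so it cannot be said how much of a difference in width or number follows the depth of a library.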
